A study of Mus musculus with 10 samples.

Results

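The collagen genes of the cranial neural crest cell line O9-1 were examined in cells with a knockout (ko) of Kat5 or Ep400. They were taken as every row of the raw count table whose symbol is Col, a number, the letter a and a number, which gave 44 of 43346 genes. By structure these were 11 fibrillar genes, 6 type IV genes, 6 type VI genes, 9 FACIT genes (fibril-associated collagens with interrupted helices), 2 multiplexin genes, 3 genes of short chain network collagens, 4 transmembrane genes, the anchoring fibril gene Col7a1, and Col26a1 and Col28a1. Of the 44 genes, 27 had counts high enough to be tested in at least 1 comparison and 25 in all comparisons.

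O9-1 is a line of mouse cranial neural crest cells with a tetraploid genome. RNA was sequenced from 4 wildtype samples, 3 clones with a Kat5 ko and 3 clones with an Ep400 ko, all made by CRISPR/Cas9 in this line, so that each ko library is 1 clone (Kat5/1 to Kat5/3 and Ep400/1 to Ep400/3). Kat5, also called Tip60, is a histone acetyltransferase and Ep400 is an ATP-dependent remodeler, and both are subunits of the same chromatin complex. All cells, wildtype included, grew on dishes coated with Matrigel, itself a basement membrane extract, in preconditioned medium. The spread within the ko groups is therefore one between clones and the spread within wildtype one between separate cultures.

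Collagens are secreted proteins whose chains wind around each other into a helix. Fibrillar collagens (types I, III, V and others) build the striated fibrils of connective tissue and bone, type IV collagen forms the network of basement membranes, the multiplexins XV and XVIII lie at the edge of basement membranes, and type VI collagen forms beaded filaments between cells and matrix. Cranial neural crest cells give rise to the facial skeleton and much of the facial connective tissue, and variants of several collagen genes are known to affect the craniofacial skeleton. In the endoplasmic reticulum, collagen chains are hydroxylated, glycosylated and folded by dedicated enzymes and chaperones before they are exported, trimmed and cross-linked.

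The libraries held between 30968945 and 48301792 counts. Kat5 mRNA was at 49.2 to 58.3 CPM (counts-per-million, scaled with TMM factors) in wildtype and at 16.3 to 23.0 CPM in the Kat5 ko clones, and Ep400 mRNA was at 158 to 168 CPM in wildtype and at 54.4 to 60.4 CPM in the Ep400 ko clones. Of 12 neural crest and O9-1 markers, 10 were above 1 CPM in every wildtype library, whereas Sox10 had no count in any library and Ngfr stayed at or below 0.307 CPM. The clone Kat5/1 stood apart by 2 of 5 smooth muscle markers, Acta2 at 506 CPM and Tagln at 181 CPM, against at most 15.6 and 1.39 CPM in wildtype. The remaining markers Cnn1, Myh11 and Des were at 0.083, 0.0277 and 0 CPM in Kat5/1. The summed level of the 5 smooth muscle markers was 5.91 to 17.0 CPM in wildtype, 0.457 to 687 CPM in the Kat5 ko clones and 2.30 to 57.2 CPM in the Ep400 ko clones. Markers of epithelium, endothelium and leukocytes summed to at most 3.34, 1.71 and 7.68 CPM in any library.

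In wildtype cells, the collagen genes together took 0.895% to 1.20% of all counts. Per kilobase of exon, which allows levels of different genes to be compared, the main chains were those of type I collagen, the chief fibrillar collagen of bone and skin, with 297 ± 41.4 CPM per kb for Col1a2 and 246 ± 35.3 CPM per kb for Col1a1 (SD, n = 4). Next came Col6a1 (149 ± 28.2 CPM per kb) of type VI collagen, Col3a1 (116 ± 36.3 CPM per kb), whose product joins type I fibrils in stretchable tissues, Col4a1 (93.2 ± 5.29 CPM per kb) and Col4a2 (70.3 ± 13.3 CPM per kb) of type IV collagen, and Col18a1 (83.9 ± 23.2 CPM per kb), the source of endostatin. The order of Col3a1, Col4a1 and Col18a1 was within their spread. Summed per kb, the fibrillar genes made up 57.3% ± 2.19 of the collagen mRNA in wildtype, type VI genes 17.5% ± 1.88, type IV genes 14.2% ± 0.509, multiplexin genes 6.78% ± 2.82, short chain genes 2.25% ± 1.08 and FACIT genes 1.81% ± 0.253 (n = 4).

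**Figure D1:**
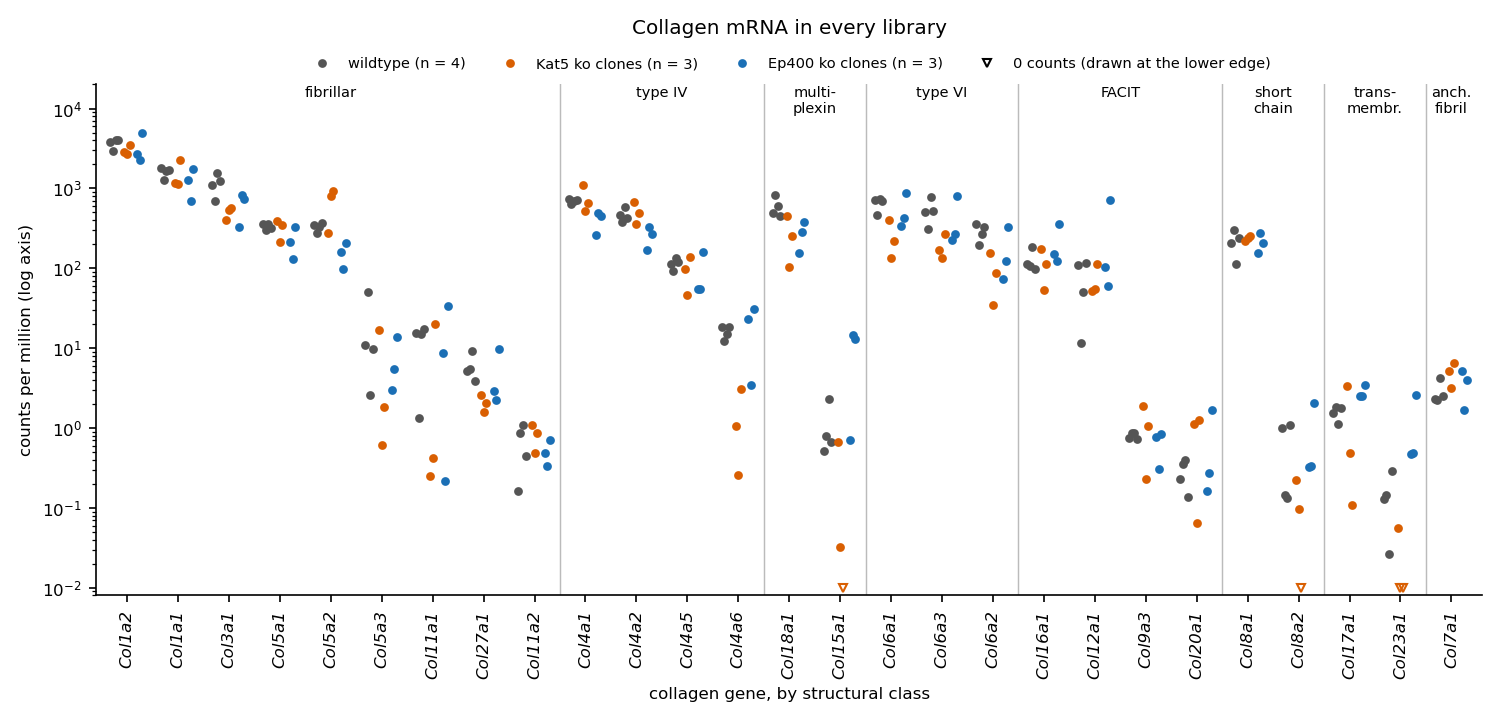
Level of the 27 tested collagen genes in each of the 10 libraries, in CPM on a log axis, by structural class; each point is 1 library and open triangles at the lower edge stand for 0 counts. Col1a2 lay between 2241 and 4935 CPM in all libraries, whereas Col23a1 reached at most 2.57 CPM and Col4a6 was at 3.09 CPM or lower in the Kat5 ko clones.

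The other 17 genes stayed below the count filter in all comparisons. Their highest count in any library was 33 (Col28a1 in Ep400/3), 5 of them had at most 3 counts in every library, and Col9a1 had no count. Among them were Col2a1 and Col9a1, which encode cartilage collagens, and Col10a1, the collagen of hypertrophic cartilage. Col4a3 and Col4a4, chains of the kidney glomerular network, did not exceed 0.484 and 0.457 CPM. The rest were Col24a1, Col6a4, Col6a5, Col6a6, Col9a2, Col14a1, Col19a1, Col22a1, Col13a1, Col25a1 and Col26a1. Tested were 9 of 11 fibrillar genes, 4 of 6 type IV genes, 3 of 6 type VI genes, 4 of 9 FACIT genes, both multiplexin genes, Col8a1, Col17a1 and Col7a1. Col8a2 and Col23a1 passed the filter only in comparisons with the Ep400 ko clones, so counts over tested genes there include genes that passed through the group in which they are high.

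Each comparison was fitted over all genes that passed the filter by edgeR's quasi-likelihood method, and genes were called at a Benjamini-Hochberg adjusted p of at most 0.05. In the comparisons with wildtype, the p-values set each group difference against a spread pooled over clones and over cultures of the parental line. Between the ko lines, that spread is one between clones alone. Wildtype libraries are shared by both comparisons with wildtype. Each ko clone was grown from a single sorted cell, and the wildtype samples are not described as cloned. In the comparisons with wildtype, the knockout and the cloning therefore cannot be told apart.

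In the Kat5 ko clones, no collagen gene passed this test against wildtype, but the type VI genes, Col4a6, Col3a1 and Col27a1 lay below the range of all wildtype libraries in every clone. Of the 25 tested genes, 0 were called higher and 0 lower, where 0.127% and 0.372% of all 13434 tested genes were called. When a change of 1 or more on the log2 scale in either direction and a mean normalized count over 100 were required as well, 0.387% of all genes were called and again no collagen gene. At an unadjusted p of at most 0.05 there were 8 collagen genes, 1 higher and 7 lower, against 22.3% of all genes. All clones lay below all wildtype libraries for 6 of the 25 genes, against 10.9% of all genes, and above them for 0 genes, against 8.72% of all genes. DESeq2 called 7 of the 25 genes, 6 lower and 1 higher, where it called 11.0% of all genes. The median log2-fold change was -0.24 over the 25 genes and 3.2e-05 over all genes.

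Type VI collagen is assembled from chains of Col6a1, Col6a2 and Col6a3, and the median log2-fold change of its 3 tested genes in the Kat5 ko clones was -1.48. Col6a1 was at 714, 468, 733 and 687 CPM in the wildtype libraries and at 399, 136 and 222 CPM in Kat5/1 to Kat5/3. Col6a3 was at 500.2, 313, 786 and 525 CPM in wildtype and at 171, 133 and 270.4 CPM in the clones. Col6a2 was at 353, 196, 266 and 329 CPM in wildtype and at 154, 34.2 and 87.7 CPM in the clones. For each of the 3 genes the groups did not overlap, and Kat5/2 was the lowest library of all. The fitted log2-fold changes were -1.37 (SE 0.35) for Col6a1, -1.48 (SE 0.34) for Col6a3 and -1.64 (SE 0.46) for Col6a2, with adjusted p of 0.0897, 0.0776 and 0.101 by edgeR's quasi-likelihood test and of 0.00241, 0.00077 and 0.00349 by DESeq2. The share of type VI genes in the collagen mRNA per kb was 8.29% ± 3.19 in the Kat5 ko clones (n = 3) beside the 17.5% of wildtype. Col6a1 and Col6a2 lie on chromosome 10 in the same direction with 85161 bases between them, and Col6a3 lies on chromosome 1. The median gene of chromosome 10 lay between -0.10 and 0.08 on the log2 scale relative to wildtype in the Kat5 ko clones, and that of chromosome 1 was at -0.25 in Kat5/1, at -0.10 in Kat5/2 and at -0.02 in Kat5/3, each smaller than the differences of the genes. In these bulk samples, fewer cells with the mRNA and less mRNA per cell cannot be told apart.

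Since all 3 genes lay below wildtype in every Kat5 ko clone, the bases before their starts are shown. They were read from RefSeq sequences of GRCm38.p6 and cut where the gene begins in the GENCODE annotation. Capitals mark any match, on either strand, to the GC box with the letters GGGCGG, to the CCAAT motif or to the TATA box with the letters TATAAA.
Col6a1, chr10:76726169-76726294, minus strand: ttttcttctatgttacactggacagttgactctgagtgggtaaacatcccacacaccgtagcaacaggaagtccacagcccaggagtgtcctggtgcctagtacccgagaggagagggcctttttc
Col6a2, chr10:76623631-76623880, minus strand: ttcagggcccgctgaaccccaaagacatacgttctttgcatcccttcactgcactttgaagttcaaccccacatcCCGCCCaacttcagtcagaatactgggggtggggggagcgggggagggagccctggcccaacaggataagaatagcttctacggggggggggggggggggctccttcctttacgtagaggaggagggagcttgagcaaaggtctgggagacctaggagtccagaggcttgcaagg
Col6a3, chr1:90843972-90844221, minus strand: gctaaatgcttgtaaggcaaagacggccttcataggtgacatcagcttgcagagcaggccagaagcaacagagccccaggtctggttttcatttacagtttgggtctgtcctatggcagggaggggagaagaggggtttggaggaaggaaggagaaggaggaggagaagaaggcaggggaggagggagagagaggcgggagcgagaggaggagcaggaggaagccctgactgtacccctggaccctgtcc
The Col6a2 window held 1 GC box, read on the opposite strand, and the windows of Col6a1 (126 bases) and Col6a3 (250 bases) held none of the motifs. Of all 32851 promoters in the RefSeq table, 32.7% hold a GC box, 33.8% a CCAAT box and 12.4% a TATA box in the 250 bases before the start. Of the 44 collagen genes 35 had an entry, of which 21 held a GC box, 12 a CCAAT box and 5 a TATA box. Col12a1, Col14a1, Col1a1, Col22a1, Col26a1, Col2a1, Col4a3, Col5a2 and Col9a3 had none.

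Col4a6 had the most negative log2-fold change of the tested collagen genes in the Kat5 ko clones. It was at 18.4, 12.4, 14.8 and 18.2 CPM in wildtype and at 1.05, 0.261 and 3.09 CPM in the clones. The fitted log2-fold change was -3.43 (SE 0.69, adjusted p = 0.069 by edgeR's quasi-likelihood test and 1.35e-06 by DESeq2), and it was -4.58 without Kat5/3. Col4a5, whose product pairs with that of Col4a6 in the basement membranes of smooth muscle and other tissues, was at 113, 91.4, 134 and 119 CPM in wildtype and at 99.0, 45.9 and 136 CPM in the clones, so that its groups overlapped (log2-fold change -0.29, SE 0.32, adjusted p = 0.627). Per kb, Col4a6 stood at 0.0931 to 0.137 of Col4a5 in wildtype, at 0.0048 to 0.0191 in the Kat5 ko clones and at 0.0521 to 0.360 in the Ep400 ko clones. The ratio was thus lower in each Kat5 ko clone than in any other library. The median gene of the X chromosome was at 0.03, -0.14 and 0.08 on the log2 scale in Kat5/1, Kat5/2 and Kat5/3. Col4a5 and Col4a6 were named after their values were seen.

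The genes lie head to head on the X chromosome, Col4a6 on the minus strand (chrX:141165403-141474076) and Col4a5 on the plus strand (chrX:141475385-141689234), with 1308 bases between their annotated starts in GRCm38. The bases before both starts are given with the same motifs in capitals, since the neighbours share this stretch and differ in level.
Col4a6, chrX:141474077-141474326, minus strand: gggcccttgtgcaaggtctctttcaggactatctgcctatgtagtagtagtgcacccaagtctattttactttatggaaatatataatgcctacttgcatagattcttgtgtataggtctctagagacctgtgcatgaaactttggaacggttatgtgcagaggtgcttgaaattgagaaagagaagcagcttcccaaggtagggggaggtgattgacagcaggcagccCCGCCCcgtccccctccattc
Col4a5, chrX:141475169-141475384, plus strand: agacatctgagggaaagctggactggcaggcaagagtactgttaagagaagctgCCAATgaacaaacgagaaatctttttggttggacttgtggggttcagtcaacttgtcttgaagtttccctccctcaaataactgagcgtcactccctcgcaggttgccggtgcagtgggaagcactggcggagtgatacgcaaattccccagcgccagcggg
The Col4a6 window held 1 GC box on the opposite strand, and the Col4a5 window of 216 bases held 1 CCAAT box. The full 250 bases before the RefSeq start of Col4a5 held 1 GC box as well, which the cut at the annotated gene start left out. Col4a1 and Col4a2, the common basement membrane chains, are likewise head to head, on chromosome 8, where their annotated first exons overlap by 22 bases. Their ratio per kb, Col4a1 to Col4a2, was 1.04 to 1.52 across all 10 libraries.

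**Figure D2:**
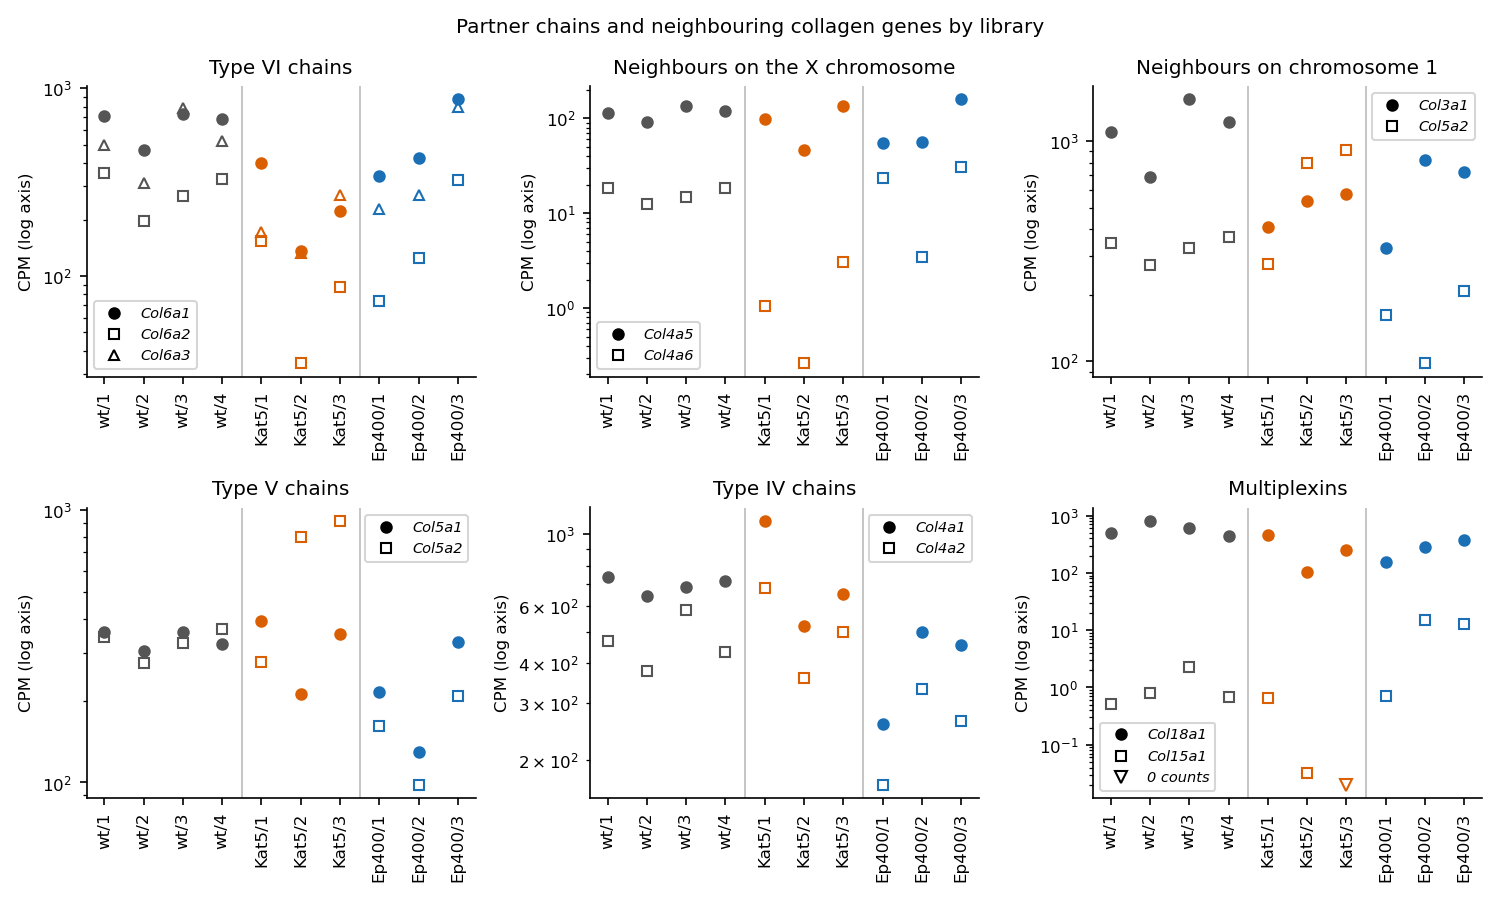
Level in each library, in CPM on a log axis, for chains of one trimer and for neighbouring genes; grey is wildtype (wt), orange the Kat5 ko clones, blue the Ep400 ko clones, marker shapes are genes, and an open triangle marks 0 counts. Col4a6 but not Col4a5 stands apart in the Kat5 ko clones, and Col5a2 exceeds Col3a1 in Kat5/2 and Kat5/3 only.

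Among the fibrillar genes, Col3a1 and Col5a2, neighbours on chromosome 1 (chr1:45311538-45349706 and chr1:45374321-45503282, tail to tail, 24614 bases apart), had estimates of opposite sign in the Kat5 ko clones. Col3a1 was at 1106, 689, 1551 and 1223 CPM in wildtype and at 408, 534 and 576 CPM in the clones, all below wildtype (log2-fold change -1.18, SE 0.27, adjusted p = 0.0761 by edgeR's quasi-likelihood test, 0.00107 by DESeq2). On the same chromosome, Col5a2, a chain of the type V collagen that sets fibril diameter, was at 344, 275, 326 and 366 CPM in wildtype and at 276, 798 and 916 CPM in the clones. Kat5/2 and Kat5/3 were thus above wildtype and Kat5/1 within its range (log2-fold change 1.01, SE 0.35, adjusted p = 0.15, DESeq2 0.039). Its partner chain Col5a1 was at 305 to 359 CPM in wildtype and at 390.5, 211 and 352 CPM in the clones (log2-fold change -0.09, SE 0.21, adjusted p = 0.843). Col5a2 per kb was at 0.797 to 1.00 of Col5a1 in wildtype, and at 0.626, 3.35 and 2.30 of it in Kat5/1, Kat5/2 and Kat5/3. Col27a1, a fibrillar collagen of cartilage named, like Col3a1, after its values were seen, was at 3.87 to 9.24 CPM in wildtype and at 2.60, 1.60 and 2.08 CPM in the clones (log2-fold change -1.51, SE 0.38, adjusted p = 0.0865).

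The type I genes did not separate the groups. Col1a2 was at 3794, 2941, 4056 and 3988 CPM in wildtype and at 2857, 2694 and 3491 CPM in the Kat5 ko clones (log2-fold change -0.30, SE 0.16, adjusted p = 0.315), and Col1a1 at 1283 to 1822 CPM in wildtype and at 1169, 1144 and 2236 CPM in the clones (log2-fold change -0.10, SE 0.26, adjusted p = 0.853). The median log2-fold change of the 9 tested fibrillar genes was -0.30, with 2 estimates above 0 and 7 below. For the 4 tested type IV genes it was -0.08, with 2 estimates on either side, Col4a1 and Col4a2 at 0.12 (SE 0.24) and 0.14 (SE 0.24). Col4a1 was at 643 to 735 CPM in wildtype and at 1101, 521 and 655 CPM in the clones. The high value was that of Kat5/1, the clone with high Acta2 and Tagln. In Kat5/1 type IV genes made up 25.5% of the collagen mRNA per kb, against 13.7% to 14.9% in wildtype, 16.6% in Kat5/2 and 15.6% in Kat5/3. The part of Acta2 and Tagln in this difference was not tested. Fibrillar genes made up 50.6%, 70.3% and 69.4% in Kat5/1, Kat5/2 and Kat5/3, against 54.2% to 59.2% in wildtype.

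**Figure D3:**
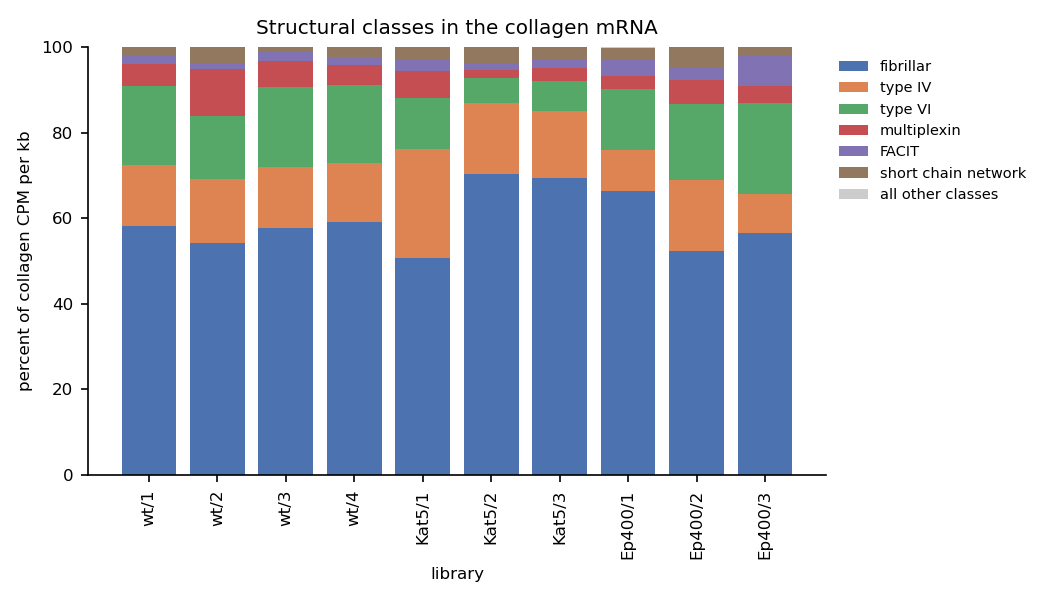
Share of each structural class in the summed collagen level per kilobase of exon, in percent, for each library as a stacked bar. Type VI genes take 17.5% on average in wildtype and 8.29% in the Kat5 ko clones, and type IV genes reach 25.5% in Kat5/1.

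Of the multiplexin genes, Col18a1 was at 493, 815, 598 and 449.7 CPM in wildtype and at 457, 105 and 250.4 CPM in the Kat5 ko clones, so that Kat5/1 lay within the wildtype range (log2-fold change -1.12, SE 0.45, adjusted p = 0.19). The other tested genes, Col8a1, Col16a1, Col12a1, Col7a1, Col17a1, Col15a1, Col9a3, Col20a1, Col5a3, Col11a1 and Col11a2, had overlapping groups and adjusted p of 0.245 or more. Among them, Col8a1, a short chain collagen of vessel and corneal matrices, was at 210.1, 301, 112 and 242 CPM in wildtype, at 221, 239 and 255 CPM in the Kat5 ko clones and at 157, 279.8 and 208 CPM in the Ep400 ko clones. Col7a1, whose product anchors epithelial basement membranes, was at 2.33, 2.21, 4.26 and 2.55 CPM in wildtype, at 5.20, 3.14 and 6.44 CPM in the Kat5 ko clones and at 5.16, 1.66 and 3.95 CPM in the Ep400 ko clones. For both genes the levels of all groups overlapped. Col8a2, tested only in comparisons with the Ep400 ko clones, was at 1.00, 0.146, 0.132 and 1.10 CPM in wildtype, at 0.221, 0.0980 and 0 CPM in the Kat5 ko clones and at 0.327, 0.338 and 2.06 CPM in the Ep400 ko clones. The Kat5 call count depended on 1 clone. Without Kat5/1, 9 collagen genes were called, of which Col3a1, Col4a6, Col15a1, Col27a1, Col6a2, Col6a1, Col18a1 and Col17a1 were lower and Col5a2 higher, and the number of all genes called went from 67 to 2651. Without wildtype 2, Col3a1 alone was called of the collagen genes, where 58 of all 13344 genes were called.

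In the Ep400 ko clones, Col5a2 fell against wildtype. Col23a1 was called higher, but it passed the count filter only through the Ep400 ko clones, in which it is high, so its call is no independent support. These were the only collagen genes called among 27 tested, 1 higher where 8.09% of all 13836 tested genes were called higher and 1 lower where 5.76% were called lower. Col5a2 also passed the stricter thresholds on size and mean count, as did 6.48% of all genes. At an unadjusted p of at most 0.05 there were 7 collagen genes, 3 higher and 4 lower, against 32.3% of all genes. All clones lay above all wildtype libraries for 2 genes, Col23a1 and Col17a1, against 16.1% of all genes, and below them for 4, Col5a2, Col4a1, Col4a2 and Col18a1, against 14.1%. DESeq2 called 7 collagen genes, 3 higher and 4 lower, and 22.7% of all genes. The median log2-fold change was -0.22 over the 27 genes and 0.04 over all genes.

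Col5a2 was at 162, 98.0 and 208 CPM in Ep400/1 to Ep400/3, all below the 275 CPM of the lowest wildtype library. The log2-fold change was -1.02 (SE 0.25, adjusted p = 0.0305 by edgeR's quasi-likelihood test), or 2.03-fold lower. Col5a1 was at 216, 129.9 and 329 CPM (log2-fold change -0.53, SE 0.28, adjusted p = 0.223), and the ratio of Col5a2 to Col5a1 per kb was 0.559 to 0.668, below the 0.797 to 1.00 of wildtype. The call of Col5a2 was lost without wildtype 1 (adjusted p = 0.0811), wildtype 2 (0.0516), wildtype 4 (0.0817) or Ep400/1 (0.0579), while the log2-fold change stayed between -1.31 and -0.80 in all 7 fits without a library.

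Col23a1, a transmembrane collagen that is shed from the cell surface, was barely detected. It was at 0.130, 0.146, 0.0265 and 0.293 CPM in wildtype, at 0.0553 CPM in Kat5/1 and 0 in the other Kat5 ko clones, and at 0.467, 0.492 and 2.57 CPM in the Ep400 ko clones. Each Ep400 ko clone was thus above all other libraries. Against wildtype the log2-fold change was 2.99 (SE 0.83, adjusted p = 0.0473 by edgeR's quasi-likelihood test). The summed counts were 142 in the Ep400 ko clones and 23 in wildtype, a depth-scaled ratio of 7.80 (exact 95% interval 5.00 to 12.7, counting error only). The call was lost without any of the 4 wildtype libraries (adjusted p of 0.0702 to 0.12) or without Ep400/3 (adjusted p = 0.169), the clone with most of the counts, and the log2-fold change was 1.67 without that clone and 3.58 without wildtype 4. Col23a1 lies on chromosome 11, whose median gene was at -0.19 to -0.26 on the log2 scale in the Ep400 ko clones, and with each library's chromosome medians as offsets the log2-fold change was 3.22 (adjusted p = 0.0433). The bases before its start hold 1 GC box on the opposite strand, shown in capitals.
Col23a1, chr11:51289670-51289919, plus strand: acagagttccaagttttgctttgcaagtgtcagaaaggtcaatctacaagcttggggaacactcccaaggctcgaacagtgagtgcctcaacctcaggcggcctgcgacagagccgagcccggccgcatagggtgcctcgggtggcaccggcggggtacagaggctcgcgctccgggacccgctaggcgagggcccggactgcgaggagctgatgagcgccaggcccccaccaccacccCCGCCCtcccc
Col17a1, the other tested transmembrane gene and a hemidesmosome component, was at 1.11 to 1.83 CPM in wildtype and at 2.52, 2.52 and 3.49 CPM in the clones (log2-fold change 0.91, SE 0.33, adjusted p = 0.0973).

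Of the basement membrane genes, Col4a1, Col4a2 and Col18a1 lay below wildtype in every Ep400 ko clone without passing the adjusted threshold, and Col4a5, Col4a6 and Col15a1 did not. Col4a1 was at 735, 643, 689 and 715 CPM in wildtype and at 258, 497 and 454 CPM in the clones (log2-fold change -0.74, SE 0.23, adjusted p = 0.065 by edgeR's quasi-likelihood test, 0.0141 by DESeq2). Col4a2 was at 468, 377, 585 and 431 CPM in wildtype and at 168, 332 and 265 CPM in the clones (log2-fold change -0.82, SE 0.25, adjusted p = 0.0648). Col18a1 was at 155, 282 and 379.9 CPM, below the 449.7 CPM of the lowest wildtype library (log2-fold change -1.07, SE 0.33, adjusted p = 0.0651). For these 3 genes no Ep400 ko clone reached the wildtype range. Col4a1 and Col4a2 lie on chromosome 8, whose median gene was at -0.24, -0.04 and -0.20 on the log2 scale in Ep400/1, Ep400/2 and Ep400/3, and with chromosome medians as offsets their log2-fold changes were -0.59 and -0.67 (adjusted p of 0.0971 and 0.0774). Col4a6 was at 23.2, 3.44 and 31.0 CPM in the clones, above the wildtype range in Ep400/1 and Ep400/3 and below it in Ep400/2 (log2-fold change 0.31, SE 0.57, adjusted p = 0.738). The median log2-fold change of the 4 tested type IV genes was -0.52, that of the 9 fibrillar genes -0.33 and that of the 3 type VI genes -0.24.

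The level of many collagen genes varied between the Ep400 ko clones. Ep400/3 was the highest of the 3 clones for Col1a2 (4935 CPM against 2682 and 2241), Col1a1 (1756 against 1283 and 697), Col6a1 (875 against 339.8 and 427), Col6a3 (799 against 227 and 271), Col6a2 (327 against 73.3 and 124) and Col4a5 (159 against 54.3 and 55.6). For all 3 type VI genes Ep400/1 and Ep400/2 lay below the wildtype range, while Ep400/3 lay within it for Col6a2 and above it for Col6a1 and Col6a3. Without Ep400/3, 5 collagen genes were called and all were lower, Col5a2, Col5a1, Col4a5, Col6a2 and Col18a1. Of all 14008 genes in that fit, 951 were called higher and 779 lower. Without Ep400/2 there were 3 collagen genes, Col5a2, Col4a2 and Col23a1, where 1451 of all 14228 genes were called. Without wildtype 1, 2 or 4 there were 0, where 826 of 13755, 1000 of 13764 and 873 of 13707 genes were called. The collagen genes took 1.41% of all counts in Ep400/3 and 0.665% and 0.639% in Ep400/1 and Ep400/2.

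Col12a1, Col15a1 and Col11a1 ranged widely between clones. Col12a1, a FACIT collagen on the surface of type I fibrils, was at 714 CPM in Ep400/3, against 103 and 59.6 CPM in the other Ep400 ko clones, and from 11.7 to 115 CPM within wildtype (log2-fold change 2.08, SE 0.93, adjusted p = 0.163). Its companion Col16a1 was at 149, 122 and 356 CPM in the clones and at 98.4 to 182 CPM in wildtype. Col15a1, the multiplexin of the outer basement membrane zone, was at 0.519 to 2.30 CPM in wildtype, at 0.700 CPM in Ep400/1 and at 14.8 and 13.0 CPM in Ep400/2 and Ep400/3 (log2-fold change 3.19, SE 0.91, adjusted p = 0.051 by edgeR's quasi-likelihood test, 0.0011 by DESeq2). Col11a1, a cartilage fibrillar collagen named after its values were seen, ranged from 1.34 to 17.3 CPM in wildtype, from 0.249 to 20.3 CPM in the Kat5 ko clones and from 0.215 to 34.0 CPM in the Ep400 ko clones. The 5 chondrocyte markers summed to 7.33 to 25.4 CPM in wildtype, 3.51 to 56.0 CPM in the Kat5 ko clones and 0.922 to 1.99 CPM in the Ep400 ko clones. Acan was at 5.64 to 24.9 CPM in wildtype and at 0.187, 0.0307 and 0 CPM in the Ep400 ko clones, whereas Comp was at 0.0291 to 0.259 CPM in wildtype and at 0.630, 0.676 and 1.70 CPM in the Ep400 ko clones, and the part of these markers in the levels of the cartilage collagens was not tested. The median SD of log2 CPM over the 27 genes was 0.40 in wildtype, 0.78 in the Kat5 ko and 0.82 in the Ep400 ko clones, beside 0.24, 0.36 and 0.36 over 14095 genes.

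**Figure D4:**
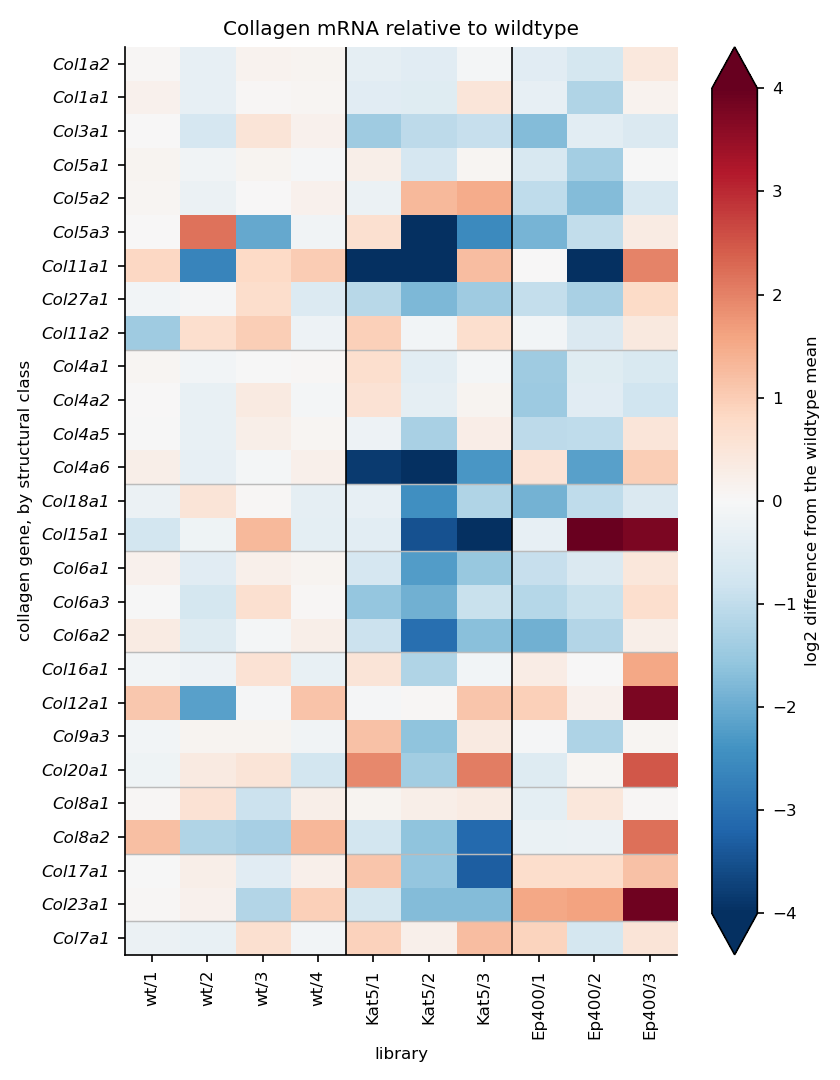
Log2 difference of each library from the wildtype mean (log2 CPM with a prior count of 2) for the 27 tested collagen genes, by structural class; red is higher, blue lower, and the colours end at 4 on either side. The type VI genes are blue in all Kat5 ko clones, and Col5a2 is red in Kat5/2 and Kat5/3 and blue in all Ep400 ko clones. Col12a1 is reddest in Ep400/3, and Col15a1 is red in Ep400/2 and Ep400/3.

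Compared with each other, the ko lines differed in Col5a2, which was lower in the Ep400 ko clones (log2-fold change -2.09, SE 0.48, adjusted p = 0.0472 by edgeR's quasi-likelihood test, 4.25-fold), and Col23a1 was called higher (log2-fold change 5.80, SE 1.29, adjusted p = 0.0444), again after passing the filter through the Ep400 ko clones. These were 1 gene higher and 1 lower of 27 tested, where 4.34% and 2.97% of all 13587 genes were called higher and lower. Col5a2 passed the stricter thresholds here too, as did 5.51% of all genes. For Col23a1 the summed counts were 142 in the Ep400 ko clones, 106 of them in Ep400/3, and 2 in the Kat5 ko clones. The depth-scaled ratio was 68.4 (exact 95% interval 18.6 to 570.1, counting error only, without the spread between clones). The fitted log2-fold change of Col23a1 was 4.49 without Ep400/3, 5.19 without Kat5/3 and 8.51 without Kat5/1. Without Kat5/1 the remaining Kat5 ko clones have no count, and the fitted value is not a bound. At an unadjusted p of at most 0.05 there were 7 collagen genes, against 32.4% of all genes. All Ep400 ko clones lay above all Kat5 ko clones for 4 genes (19.5% of all genes) and below them for 3 (19.4% of all genes), and DESeq2 called 5 (22.7% of all genes). The 4 higher genes were Col23a1, Col4a6 (log2-fold change 3.70, SE 1.05, adjusted p = 0.0648), Col15a1 (5.34, SE 1.64, adjusted p = 0.0765) and Col8a2 (3.10, SE 1.22, adjusted p = 0.129), and the 3 lower genes Col5a2, Col4a1 (-0.92, SE 0.37, adjusted p = 0.136) and Col4a2 (-1.01, SE 0.34, adjusted p = 0.0922). Col15a1 had 24, 1 and 0 counts in Kat5/1 to Kat5/3, and Col8a2 had 8, 3 and 0. Both passed the filter here through the Ep400 ko clones, in which they are high. As for Col23a1, their values are therefore no independent support. The median log2-fold change was 1.12 for the 3 type VI genes, 0.13 for the 9 fibrillar genes, -0.49 for the 4 type IV genes, and 0.01 for all genes. Both calls were lost without any library other than Kat5/1. Without Kat5/1, 4 collagen genes were called, where 2537 of all 14095 genes were called.

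The mRNAs of proteins that make, process, bind or take up collagen were followed with a list of 48 genes, all of which were in the table. The entry found for Mia2, an export gene, had no match in GENCODE M21 and at most 2 counts in any library. Its older symbol Ctage5 was not looked up, so the level of this gene is not known here. In the Ep400 ko clones, P4ha1, P4ha2, Plod2, Serpinh1, Fkbp10, Sec23a, Creb3l1, Adamts14 and Loxl2 fell, while Plod1, Crtap and Itga1 rose. Of 40 tested genes, 9 were called lower and 3 higher by edgeR's quasi-likelihood test, beside the 5.76% and 8.09% of all genes given above. The stricter thresholds were passed by 7 of them and by 6.48% of all genes. At an unadjusted p of at most 0.05 there were 11 higher and 12 lower of the 40, against 32.3% of all genes. DESeq2 called 8 higher and 11 lower, where it called 22.7% of all genes. All clones lay above all wildtype libraries for 8 genes (16.1% of all genes) and below them for 11 (14.1% of all genes). The median log2-fold change of the 40 genes was -0.13. In the Kat5 ko clones 0 of 41 tested genes were called, where 0.127% of all genes were called higher and 0.372% lower. At an unadjusted p of at most 0.05 there were 5 (1 higher, 4 lower), against 22.3% of all genes. DESeq2 called 3, where it called 11.0% of all genes, and the median log2-fold change was -0.05.

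Of the hydroxylation and glycosylation genes, 3 were called lower and 2 higher of 14 tested in the Ep400 ko clones, beside 5.76% and 8.09% of all genes. P4ha1, P4ha2 and P4ha3 encode catalytic subunits of prolyl hydroxylase, an enzyme that stabilises the helix. P4ha3, named after its values were seen, was not called. It was at 2.43 to 4.12 CPM in wildtype and at 8.73, 4.30 and 7.72 CPM in the Ep400 ko clones (log2-fold change 1.11, SE 0.33, adjusted p = 0.0582 by edgeR's quasi-likelihood test, 0.0113 by DESeq2). P4ha2 was at 42.2, 57.0, 49.2 and 41.4 CPM in wildtype and at 19.0, 14.1 and 15.6 CPM in the Ep400 ko clones (log2-fold change -1.51, SE 0.18, adjusted p = 0.00329), and P4ha1 at 109 to 235 CPM and at 63.4, 71.2 and 94.5 CPM (-1.05, SE 0.27, adjusted p = 0.0365). Plod2, the lysyl hydroxylase of the telopeptides, was at 26.5 to 64.1 CPM and at 15.4, 11.3 and 15.5 CPM (-1.34, SE 0.35, adjusted p = 0.0368). In contrast, Plod1, which hydroxylates lysines of the helix, rose from 38.1 to 43.1 CPM in wildtype to 53.6, 55.5 and 79.6 CPM (0.65, SE 0.17, adjusted p = 0.0383), and Crtap, a subunit of the prolyl 3-hydroxylase complex, from 62.0 to 75.4 CPM to 97.7, 91.9 and 96.7 CPM (0.51, SE 0.12, adjusted p = 0.0262). For all 5 called genes the groups did not overlap. Of all genes, every Ep400 ko clone lay below all wildtype libraries for 14.1% and above them for 16.1%.

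Of 9 tested genes of folding and export, 4 were called lower and 0 higher, beside 5.76% and 8.09% of all genes. Serpinh1, the collagen chaperone Hsp47, was at 569 to 859 CPM in wildtype and at 386, 224 and 417 CPM in the Ep400 ko clones (log2-fold change -0.95, SE 0.25, adjusted p = 0.0398 by edgeR's quasi-likelihood test). Its partner Fkbp10, a prolyl isomerase, was at 206, 169, 211 and 186 CPM in wildtype, at 227, 213 and 349 CPM in the Kat5 ko clones and at 112, 108 and 102 CPM in the Ep400 ko clones (-0.80, SE 0.13, adjusted p = 0.00822). Sec23a, of the COPII coat that carries procollagen, was at 98.8 to 159 CPM and at 53.9, 75.2 and 88.5 CPM (-0.82, SE 0.22, adjusted p = 0.042). Creb3l1, a transcription factor of secretory and bone-forming cells, was at 3.00 to 4.08 CPM and at 0.303, 0.123 and 1.19 CPM (-2.60, SE 0.68, adjusted p = 0.0386). In the Kat5 ko clones Creb3l1 was at 0.719, 0.0327 and 0.789 CPM, also below all wildtype libraries (-2.72, SE 0.75, adjusted p = 0.0995, DESeq2 0.00252).

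Adamts14, a protease that removes the amino propeptide of procollagen, was at 34.4 to 76.5 CPM in wildtype and at 17.7, 21.3 and 10.4 CPM in the Ep400 ko clones (log2-fold change -1.50, SE 0.35, adjusted p = 0.0251 by edgeR's quasi-likelihood test). The other tested genes of propeptide removal went the other way, with 5 of 6 estimates above 0 and a class median of 1.25. Of these 6 genes, 0 were called higher and 1 lower, beside 8.09% and 5.76% of all genes. DESeq2 called 3 of them higher and 1 lower, where it called 22.7% of all genes. Loxl2, a lysyl oxidase that also acts on type IV collagen, was at 56.3 to 88.6 CPM and at 13.0, 3.10 and 28.6 CPM (-2.32, SE 0.61, adjusted p = 0.039). Kat5/2 had Loxl2 at 3.79 CPM, while Kat5/1 and Kat5/3 were at 73.0 and 47.5 CPM. Itga1, an integrin subunit that binds type IV and other collagens, was at 0.553 to 2.46 CPM in wildtype, at 0.392 to 0.942 CPM in the Kat5 ko clones and at 4.78, 3.35 and 6.15 CPM in the Ep400 ko clones (2.14, SE 0.56, adjusted p = 0.0386). Between the ko lines, Itga1 (2.93, SE 0.52, adjusted p = 0.0314) and Fkbp10 (-1.29, SE 0.24, adjusted p = 0.0317) differed by edgeR's quasi-likelihood test. These were 2 of 40 tested genes, where 4.34% of all genes were called higher and 2.97% lower. The 12 calls against wildtype were sensitive to single libraries. Without wildtype 1 or wildtype 4, 3 processing genes were called, all of them among the 12. Without Ep400/2 there were 5, of which 4 were among the 12, without wildtype 2 6 (5 among the 12), without wildtype 3 7 (6 among the 12), without Ep400/1 7 (5 among the 12) and without Ep400/3 8 (8 among the 12). Without Ep400/3 the log2-fold change was -3.93 for Creb3l1 and -3.23 for Loxl2, and without wildtype 3 it was 2.88 for Itga1. P4ha2 and Fkbp10 were called in all 7 of these fits and Adamts14 in 6. Over all genes, the 7 fits called between 826 and 2016 genes, beside 1917 with all libraries. The calls between the ko lines were lost without any library other than Kat5/1.

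**Figure D5:**
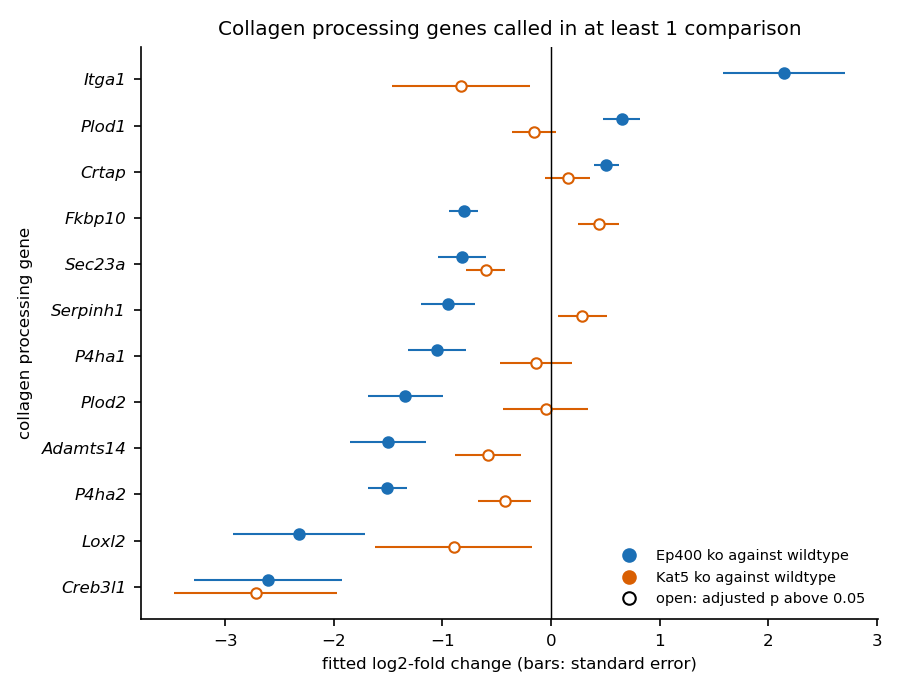
Fitted log2-fold change with its standard error for the 12 collagen processing genes called in at least 1 comparison, in the Ep400 ko clones (blue) and the Kat5 ko clones (orange) against wildtype; filled points have an adjusted p of at most 0.05. All 12 blue points are filled, from -2.60 for Creb3l1 to 2.14 for Itga1, and no orange point is.

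Some exons are shared with other annotated genes, and whether the counting used the strand is not given in the sources used here. Of the genes described above, Col3a1 shares 141 of 9816 exon bases with Gm47302 on the same strand, Col5a1 99 and 113 of 8490 bases with genes on the opposite strand, Col4a2 43 of 6619 bases with Gm15419 on the opposite strand and Col15a1 14 of 6349 bases with Gm12426.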

How the data were processed

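RNA of 4 wildtype, 3 Kat5 ko and 3 Ep400 ko samples of O9-1 cells was sequenced from TruSeq Stranded mRNA libraries. The raw counts deposited by the authors are whole read counts per gene, not normalized. The submitters' processing notes name bcl2fastq 2.20, STAR 2.7.3, DESeq2 1.36.0, R 4.2.1 and the build mm10, and the counter and annotation are not given in the sources used here. The normalized tables were not used. Samples were grouped by their labels, and the members, classes and lists were chosen with earlier results of these data known.

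In R 4.3.3, genes passing filterByExpr were scaled with TMM factors and tested with edgeR 4.0.16 (glmQLFit, glmQLFTest) within the libraries of each comparison, without covariates, with Benjamini-Hochberg adjustment over all genes tested. The stricter thresholds on size and mean count follow the study's methods. DESeq2 1.42.0 was an alternative, as were other scalings and filters, a fit of all 10 libraries, a replicate block, chromosome offsets and fits without 1 library. The edgeR 4 quasi-likelihood fit and robust dispersions were added after the data were seen. CPM used the TMM factors, and levels per kb used exon lengths of GENCODE M21 (42462 of 43346 genes matched).

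Values by library, or their range, are given for collagen genes called in at least 1 comparison, for the 2 tested genes per class with the highest level per kb in wildtype and for chains of their trimers, and for up to 12 called processing genes. Genes outside this rule are said to be named after their values were seen (Col3a1, Col4a5, Col4a6, Col11a1, Col27a1, P4ha3) or stand only in lists of names. Depth was 30968945 to 48301792 counts per library, and intervals cover counting error only. No pair of replicate libraries agreed within sampling noise (their chi-square values divided by the degrees of freedom ran from 26.1 to 239). On simulated counts with 200 genes changed by 2 on the log2 scale, edgeR recovered 148 of 200 for Kat5 ko against wildtype (8 false calls among 13434 genes), 151 for Ep400 ko against wildtype (8 among 13836) and 110 for Ep400 ko against Kat5 ko (7 among 13587), and DESeq2 168, 179 and 157 with 36, 54 and 50 false calls. With no gene changed, edgeR made 0 calls and DESeq2 12, 8 and 18.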

Additional observations from a re-analysis of the deposited data

Results flagged for a closer look

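Col5a2 differed between the ko lines, with a log2-fold change of -2.09 in the Ep400 ko against the Kat5 ko clones (adjusted p = 0.0472 by edgeR's quasi-likelihood test), since all Ep400 ko clones lay below wildtype and Kat5/2 and Kat5/3 above it. Col23a1 differed by 5.80 (adjusted p = 0.0444), on 142 against 2 summed counts, after passing the count filter only through the Ep400 ko clones. Of the processing genes, Fkbp10 differed by -1.29 (adjusted p = 0.0317) and Itga1 by 2.93 (adjusted p = 0.0314).

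Among the 27 tested collagen genes, 3 had a wildtype library far from the other 3 by Dixon's ratio of gap to range, where chance alone marks about 1 in 20 groups. Col11a1 was at 1.34 CPM in wildtype 2 (ratio 0.861), Col15a1 at 2.30 CPM in wildtype 3 (ratio 0.850) and Col7a1 at 4.26 CPM in wildtype 3 (ratio 0.838).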

How the results depend on the processing

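The log2-fold changes that were rerun, those of collagen genes with an unadjusted p of at most 0.05 and of called processing genes, kept their sign in all settings that gave a value. Kat5 ko against wildtype had 0 collagen genes called, 7 with DESeq2, 2 without the filter (Col6a3 and Col4a6), 1 with the edgeR 4 quasi-likelihood fit (Col4a6) and 0 to 9 without 1 library, and 0 processing genes, 3 with DESeq2, 1 with the edgeR 4 fit and 0 to 3 without 1 library. Ep400 ko against wildtype had 2 collagen genes, 7 with DESeq2, 6 without the filter, 1 with a filter at a mean count of 100, 0 in the fit of all 10 libraries and 0 to 5 without 1 library, and 12 processing genes, 19 with DESeq2, 6 in the fit of all 10 libraries and 3 to 8 without 1 library. Ep400 ko against Kat5 ko had 2 collagen genes, 5 with DESeq2, 1 with library size alone, 4 without the filter, 0 with the stricter filter, 5 in the fit of all 10 libraries, 4 with the edgeR 4 fit and 0 to 4 without 1 library, and 2 processing genes, 11 with DESeq2, 6 without the filter, 11 in the fit of all 10 libraries, 6 with the edgeR 4 fit and 0 to 8 without 1 library. Col23a1 did not pass the stricter filter. The causes of the other changes were not tested.

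With the replicate number as a block, 0 collagen and 0 processing genes were called for Kat5 ko against wildtype, 0 and 0 for Ep400 ko against wildtype, and 1 (Col4a6) and 0 for Ep400 ko against Kat5 ko. The labels give these numbers as replicate or clone numbers and name no pairing. Same-numbered libraries correlated at -0.10 to 0.22 in their deviations from the group means. Libraries with different numbers were not correlated in this way, so whether the numbers pair the samples was not tested. Over all genes the block moved the calls from 67 to 0, from 1917 to 170 and from 994 to 213.

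Over all genes, Kat5 ko against wildtype went from 67 calls to 1475 with DESeq2, 245 without the filter, 26 in the fit of all libraries, 173 with the edgeR 4 fit and 1 to 2651 without 1 library. Ep400 ko against wildtype went from 1917 to 3131, 1273 in the fit of all libraries and 826 to 2016 without 1 library, and Ep400 ko against Kat5 ko from 994 to 3067, 1803 without the filter, 558 with the stricter filter, 3539 in the fit of all libraries, 1630 with the edgeR 4 fit and 4 to 2537 without 1 library. For the last comparison, library size alone moved the median log2-fold change of all genes to 0.14 and the share of higher calls from 59.4% to 72.5%.

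Of the class medians, only the fibrillar and type IV medians were rerun. Without 1 library, the fibrillar median ranged from -0.44 to -0.07 for Kat5 ko against wildtype, from -0.95 to -0.09 for Ep400 ko against wildtype and from -0.62 to 0.25 for Ep400 ko against Kat5 ko, and the type IV median from -0.29 to 0.19, from -0.85 to -0.27 and from -0.90 to -0.24. Under the other settings the fibrillar median ranged from -0.58 to -0.09, from -0.64 to -0.27 and from -0.0042 to 0.28, and the type IV median from -0.16 to 0.13, from -0.63 to -0.04 and from -0.50 to -0.35. The type IV median of -0.04 is that without the filter, over 6 genes in place of 4. Low counts limit what can be said of Col23a1, Col8a2 and Col15a1.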
